A study of Mus musculus with 6 samples.

Results

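The genes described here encode the working parts of the lysosome: proteases, glycosidases, sulfatases, lipid-degrading enzymes with their activators, membrane and sterol transport proteins, and the V1 sector of the proton pump. They were picked by gene name as the 53 genes of a list, through the annotation of the probe sets. The list was chosen with earlier results of these data known. All 53 were among the 19847 genes tested. Transcript levels were read on whole-transcript Affymetrix arrays in mouse leukemia cells of 1 line with MLL-AF10, the fusion of the histone methyltransferase MLL to AF10. The design set 3 arrays after IKK inhibitor at 0.5 µM beside 3 arrays after vehicle, and the cells of both groups carried the fusion and grew in the same serum-containing medium with WEHI conditioned medium. The sources used here give neither the name of the compound nor how long it was applied. No label says that replicates were cultured apart, so each p-value weighs the difference against a spread between samples that may be technical only. Array medians lay between 112 and 124 intensity units, the 3 arrays of a group correlated at 0.993 to 0.997 with each other over all genes, and the small number of arrays limits the precision. IKK kinases mark IkB proteins for destruction, which frees NF-kB to enter the nucleus.

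The lysosome degrades proteins, glycans and lipids that reach it by endocytosis, phagocytosis and autophagy. Its hydrolases work at acid pH, which the vacuolar ATPase maintains: the V1 sector on the cytoplasmic side splits ATP and turns a rotor that drives protons through the V0 sector in the membrane. Many genes of the organelle carry an E-box in their promoters to which the transcription factors TFEB, TFE3 and MITF bind, and macrophages are among the cells richest in lysosomes.

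Most of the 53 genes were higher with the inhibitor. Of them, 35 were called higher and 1 was called lower by limma at a Benjamini-Hochberg adjusted p under 0.05 over all genes tested, and 17 did not pass. Across all 19847 genes, 7.1% were called higher and 6.75% lower. The median log2 fold change was 0.27 over the 53 genes and 0.0064 over all genes tested. Most of the rises were below 1.5-fold: 4 of the 53 genes (Ctss, Ctsh, Lipa and Psap) were at least 1.5-fold higher, a size that 1.74% of all genes tested reached, and the other 31 genes called higher rose by less than that. In 46 of the 53 genes all 3 inhibitor arrays lay above all 3 vehicle arrays, an arrangement found in 15.7% of all genes. The median gene of the set lay 0.25, 0.28 and 0.28 above its vehicle mean on the log2 scale on inhibitor arrays 1, 2 and 3. The log2 fold change was above 0 in 50 of the 53, as in 51.9% of all genes. No member was at the floor of 16 intensity units on any array. The number called higher was 22, 30 and 29 without inhibitor arrays 1, 2 and 3, it was 22, 20 and 23 without vehicle arrays 1, 2 and 3, and centring the arrays on their medians left 23. The median log2 fold change of the 53 genes stayed between 0.23 and 0.28 in all of the 14 alternative settings tried.

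**Figure D1:**
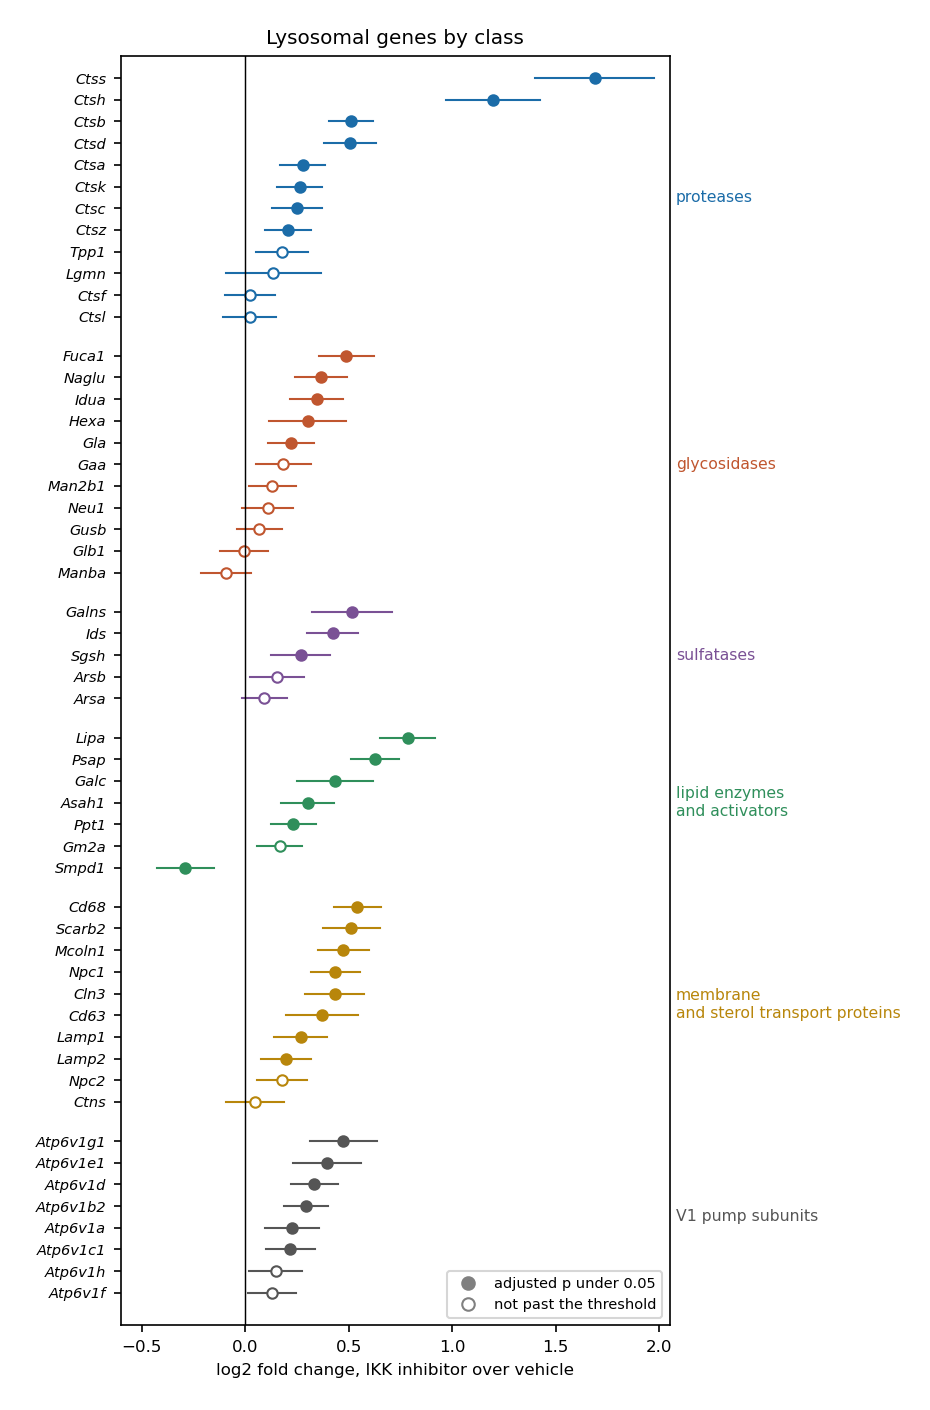
Log2 fold change of each of the 53 lysosomal genes, IKK inhibitor over vehicle, with the 95% interval of the limma fit as a bar, sorted within 6 classes. Filled points passed an adjusted p of 0.05; 35 filled points lie to the right of 0 and 1, Smpd1, to the left.

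**Figure D2:**
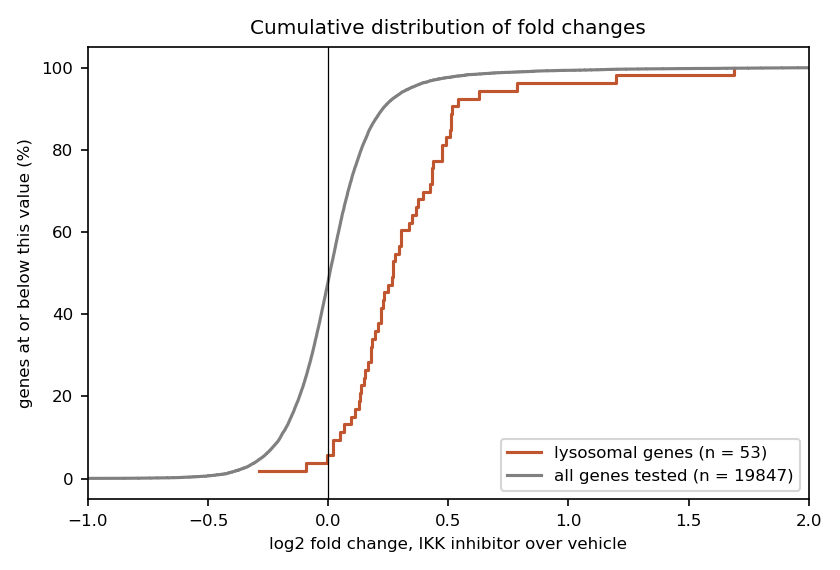
Cumulative share of genes (in percent) against the log2 fold change, for the 53 lysosomal genes and for all 19847 genes tested, shown from -1 to 2. The curve of the lysosomal genes is shifted to the right, with a median of 0.27 against 0.0064.

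Markers of myeloid cell maturation moved in the same comparison. Of 24 monocyte and macrophage markers measured, 15 were higher and none lower, among them Csf1r, the receptor for macrophage colony-stimulating factor (log2 fold change 1.23), and Adgre1, the macrophage antigen F4/80 (1.43). Their summed intensity was 23215 to 24245 on the inhibitor arrays and 13470 to 14007 on the vehicle arrays. Fcgr1, Cd163, Ccr2, Cx3cr1, Vsig4, Timd4 and the C1q genes C1qa, C1qb and C1qc did not pass, and none of the 53 lysosomal genes is in this list. Of 10 osteoclast markers 2 were higher (Mmp9 and Car2) and 8 did not pass, with a median log2 fold change of 0.16. Their sums were 2305 to 2341 on the inhibitor arrays and 1734 to 1817 on the vehicle arrays. Such sums follow the brightest genes of a list. The fibroblast list, with a median of 0.02, had sums of 2045 to 2097 with the inhibitor and 1540 to 1654 with vehicle. Of 15 neutrophil granule markers 7 were higher and 3 lower, with log2 fold changes from -2.62 to 1.32. The value of -2.62 was also the lowest of all genes tested. Across all genes tested, 7.1% were called higher and 6.75% lower. T cell, B cell and fibroblast lists each had 1 gene called, Cd28, Cd22 and Acta2, out of 7, 7 and 9 measured, and none of 4 erythroid markers was called. Of 11 markers of myeloid leukemia cells, 2 were higher, Ptprc (0.19) and Itgam (0.69, also in the macrophage list), and 2 were lower, the stem and progenitor markers Kit (-0.54) and Cd34 (-0.30), with a median log2 fold change of -0.05. With any single array left out 1 of the 11 was higher, and 0, 2 and 1 were lower without inhibitor arrays 1, 2 and 3, against 1, 0 and 0 without vehicle arrays 1, 2 and 3. No marker can be called absent without detection calls. In these bulk samples, a change in the share of cells of a type and a change in RNA per cell cannot be told apart, and the part that the shift of macrophage markers has in the lysosomal values was not tested.

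Of the 12 protease genes, 8 were higher, none was lower and 4 did not pass, with a median log2 fold change of 0.26. The largest rise was that of Ctss, which encodes cathepsin S, a cysteine protease that trims the MHC class II invariant chain in antigen-presenting cells. Its intensity was 954, 1051 and 1307 on the 3 inhibitor arrays, against 325, 369.6 and 326 on the vehicle arrays. Every inhibitor array was far above every vehicle array, and inhibitor array 3 was the brightest. The means were 1104 ± 182 with the inhibitor and 340.2 ± 25.5 with vehicle (SD, n = 3 each). The log2 fold change was 1.69 ± 0.12 (SE, as for every log2 value with ± below), or 3.22-fold, with an adjusted p of 0.000394, and it ranked 33rd among the rises of all genes tested. Next was Ctsh, the gene of the aminopeptidase cathepsin H, with 429.9, 534 and 489 intensity units with the inhibitor and 193, 218 and 221 with vehicle. These groups did not overlap either, and the log2 fold change was 1.20 ± 0.10 (adjusted p = 0.000594).

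The aspartic protease gene Ctsd and the cysteine protease gene Ctsb, both of which serve bulk protein breakdown in most cells, rose by similar amounts. Ctsb had 3739.9, 3792 and 3799 intensity units with the inhibitor and 2619, 2650.3 and 2693 with vehicle, a log2 fold change of 0.51 ± 0.04 (adjusted p = 0.000899). For Ctsd the intensities were 4362, 4411 and 4688 with the inhibitor and 3165, 3066 and 3251 with vehicle, with a log2 fold change of 0.51 ± 0.05 (adjusted p = 0.00195). In both genes the arrays of a group lay close together compared with the gap between groups. Smaller rises were those of Ctsa (0.28), which encodes the protective protein that stabilises neuraminidase and beta-galactosidase, of Ctsc (0.25), whose product activates the serine proteases of granules, of the carboxypeptidase gene Ctsz (0.21) and of Ctsk (0.26), the collagen-degrading cathepsin of osteoclasts. Ctsk and Ctss are next to each other among the protein-coding genes of the RefSeq annotation. Ctsk had 81.8, 84.5 and 81.9 intensity units with the inhibitor and 68.3, 68.2 and 70.2 with vehicle. All of these values lay below the median intensity of every array. The intensities of Ctsa were 3879, 3927 and 3928 with the inhibitor and 3194, 3181 and 3307 with vehicle, and those of Ctsc were 1256, 1309 and 1337 with the inhibitor and 1076, 1126 and 1080.5 with vehicle. Ctsz had 3857, 4009.6 and 4049.7 intensity units with the inhibitor and 3463, 3437 and 3434 with vehicle, so that all 4 genes had groups without overlap.

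The genes of cathepsin L and cathepsin F, both cysteine proteases, did not pass. Ctsl had 945, 972 and 883 intensity units with the inhibitor and 908, 915 and 934 with vehicle, so the groups overlapped, and its log2 fold change was 0.02 (95% interval -0.11 to 0.15). For Ctsf the log2 fold change was also 0.02 (-0.10 to 0.14), with mean intensities of 86.2 with the inhibitor and 84.9 with vehicle. Both signs turned with median centring, to -0.01. Lgmn, the asparaginyl endopeptidase legumain, had a log2 fold change of 0.14 (-0.09 to 0.37), and its groups overlapped at 76.5, 76.0 and 83.1 intensity units with the inhibitor and 80.2, 72.8 and 62.4 with vehicle. Tpp1, the tripeptidyl peptidase lost in a childhood form of neuronal ceroid lipofuscinosis, had 2541, 2663 and 2446 intensity units with the inhibitor and 2295, 2251 and 2212 with vehicle and a log2 fold change of 0.18 (adjusted p = 0.0716), and it was called with dim genes left out (0.0384), a floor of 64 (0.0385) and an intensity trend with a robust prior (0.00186).

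Leaving out single arrays ended the calls of the weaker proteases but not those of Ctss, Ctsh, Ctsb and Ctsd. The number called higher was 5, 7 and 6 without inhibitor arrays 1, 2 and 3 and 5, 4 and 6 without vehicle arrays 1, 2 and 3; Ctsz was called in none of these settings (adjusted p 0.0568 to 0.111), Ctsc without inhibitor array 2 alone, Ctsk not without inhibitor array 1 (0.0522) or vehicle arrays 1 and 2 (0.0504 and 0.0616), and Ctsa not without vehicle array 2 (0.0542). All 4 of these calls were also lost with median centring, at adjusted p = 0.0624 for Ctsa, 0.106 for Ctsc, 0.0861 for Ctsk and 0.186 for Ctsz. Quantile normalization ended the calls of Ctsk (0.0505) and Ctsz (0.0797). An intensity trend with a robust prior ended that of Ctsk (0.052). Ctsk and Lgmn were themselves among the dim genes left out in that setting, in which 10 of the 12 proteases were tested. With the replicate number as a block, Ctsc (0.0573) and Ctsz (0.0822) were not called.

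**Figure D3:**
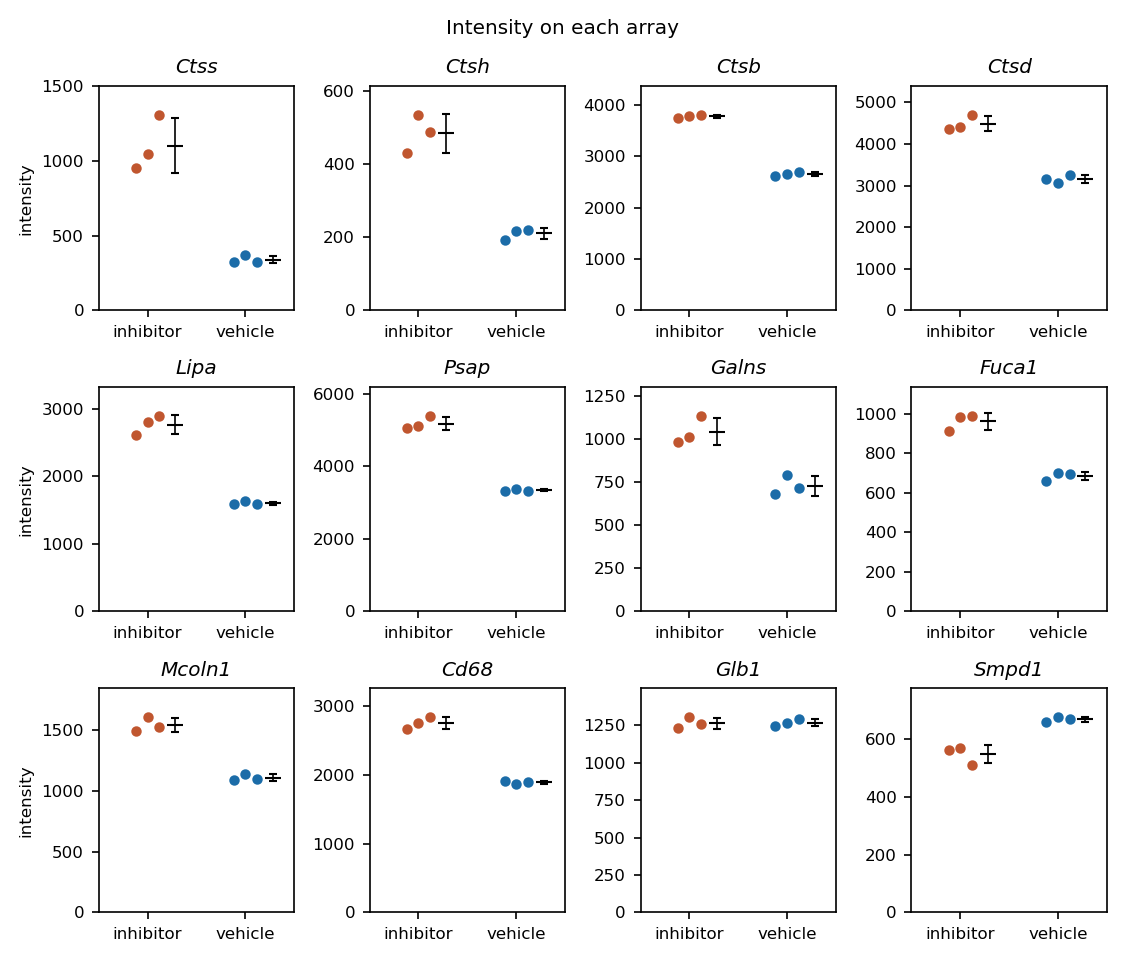
Deposited intensity (linear scale from 0, arbitrary units) of 12 genes on each array, inhibitor arrays at the left and vehicle arrays at the right of each panel, with the mean and SD of 3 arrays beside the points. The groups overlap in Glb1, the inhibitor arrays lie below the vehicle arrays in Smpd1, and they lie above them in the other 10 panels.

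The glycosidases were the class with the smallest share of calls: of 11 genes, 5 were higher, none was lower and 6 did not pass, with a median log2 fold change of 0.18. Fuca1, whose product removes fucose from glycoproteins, showed the largest rise, with 911, 984 and 987 intensity units with the inhibitor and 661, 699 and 693 with vehicle. The inhibitor arrays lay well above the vehicle arrays, and the log2 fold change was 0.49 ± 0.06 (adjusted p = 0.00277). Naglu and Idua, whose enzymes act on heparan sulfate, rose by 0.37 ± 0.05 and 0.35 ± 0.05 log2 units. Naglu had 434, 465 and 444 intensity units with the inhibitor and 334, 350.3 and 358 with vehicle. For Idua the intensities were 1068, 1123 and 1026 with the inhibitor and 864, 832 and 832 with vehicle. Hexa, the alpha subunit of beta-hexosaminidase A, whose loss causes Tay-Sachs disease, rose by 0.30 log2 units with an adjusted p of 0.0484 and with wide groups, 2414, 2372 and 2684 intensity units with the inhibitor and 1896, 2200.1 and 1967 with vehicle. Gla, the alpha-galactosidase that is deficient in Fabry disease, had 1699.5, 1764 and 1684 intensity units with the inhibitor and 1488, 1479 and 1453 with vehicle and rose by 0.22 log2 units (adjusted p = 0.0253).

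The 6 glycosidase genes that did not pass were Gaa, Man2b1, Neu1, Gusb, Glb1 and Manba. Gaa, the glycogen-degrading enzyme of Pompe disease, had 1641, 1632 and 1509.7 intensity units with the inhibitor and 1413, 1356 and 1440.0 with vehicle, without overlap, and a log2 fold change of 0.18 (0.05 to 0.32, adjusted p = 0.0794). It was called with dim genes left out (0.044), with a floor of 64 (0.046) and with an intensity trend and robust prior (0.00465). Glb1, the beta-galactosidase, had 1233, 1303 and 1255 intensity units with the inhibitor and 1245, 1264 and 1294 with vehicle; the groups overlapped and the 95% interval of the log2 fold change was -0.12 to 0.11. Manba, a beta-mannosidase, was the other glycosidase with a value below 0 (-0.09, -0.21 to 0.03). It had 743, 758 and 708 intensity units with the inhibitor and 765, 789 and 798 with vehicle. Every inhibitor array of Manba thus lay below every vehicle array, an arrangement found in 17.2% of all genes, and its limma adjusted p was 0.317. The alpha-mannosidase gene Man2b1 (0.13), the sialidase gene Neu1 (0.11) and the beta-glucuronidase gene Gusb (0.07) had inhibitor arrays above vehicle arrays by small amounts, with mean intensities of 2997, 1452 and 2200.2 with the inhibitor and 2735, 1346 and 2100.0 with vehicle. Cathepsin A, neuraminidase and beta-galactosidase form 1 complex in the lysosome; of their genes Ctsa passed and Neu1 and Glb1 did not, and a difference between the 3 was not tested.

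Among glycosidases the count of calls was 3 without inhibitor array 1, without vehicle arrays 1, 2 or 3 and with median centring, since the calls of Hexa and Gla were lost there. Hexa was called in none of the settings that left out an array (adjusted p 0.0542 to 0.149), while Fuca1, Naglu and Idua were called in all of them.

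Sulfatases remove sulfate groups from glycosaminoglycans and sulfolipids. Of 5 genes, 3 were higher and none lower, with a median log2 fold change of 0.27, and in all 5 the inhibitor arrays lay above the vehicle arrays. Galns, which acts on keratan and chondroitin sulfate and is deficient in Morquio A disease, had 983, 1009 and 1131 intensity units with the inhibitor and 679.5, 792 and 713 with vehicle. Both groups were spread out but did not overlap, and the log2 fold change was 0.52 ± 0.08 (adjusted p = 0.00921). Ids, the iduronate sulfatase of Hunter disease, had 242, 257 and 250.3 intensity units with the inhibitor and 180.2, 191 and 188 with vehicle, a log2 fold change of 0.42 ± 0.05 (adjusted p = 0.00342). Sgsh, the sulfamidase that is deficient in Sanfilippo A disease, rose by 0.27 ± 0.06 log2 units, with 567, 635 and 587 intensity units with the inhibitor and 492, 481 and 511 with vehicle. This call was lost without each of the 6 arrays in turn (adjusted p 0.0504 to 0.114) and with median centring (0.12), while Galns and Ids were called in every such setting.

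Arsa, which hydrolyses the myelin lipid sulfatide, did not pass, at a log2 fold change of 0.09 (-0.02 to 0.20), with mean intensities of 645 with the inhibitor and 605 with vehicle. Arsb, which acts on dermatan and chondroitin sulfate, had 2 probe sets that fell on either side of the threshold. The brighter, used for the gene, gave 1797, 1725 and 1628 intensity units with the inhibitor and 1513, 1583 and 1531 with vehicle, a log2 fold change of 0.15 (adjusted p = 0.128), and the other gave 1794, 1711 and 1599 with the inhibitor and 1435, 1416 and 1437 with vehicle, a log2 fold change of 0.25 (adjusted p = 0.033 when every probe set was tested singly).

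The lipid class held both the strongest rises outside the cathepsins and the only gene called lower. Of 7 genes, 5 were higher, 1 was lower and 1 did not pass, with a median log2 fold change of 0.30. Lipa encodes lysosomal acid lipase, which hydrolyses the cholesteryl esters and triglycerides of ingested lipoproteins. It had 2607, 2800.4 and 2889 intensity units with the inhibitor and 1592, 1628 and 1589.6 with vehicle. The vehicle arrays were nearly equal and every inhibitor array lay far above them, for a log2 fold change of 0.79 ± 0.06, or 1.72-fold (adjusted p = 0.000373). Psap, the precursor of the saposins that present sphingolipids to their hydrolases, had 5037, 5096 and 5374 intensity units with the inhibitor and 3327, 3373 and 3323 with vehicle, and rose by 0.63 ± 0.05 log2 units (adjusted p = 0.000542). Gm2a, the activator that lifts ganglioside GM2 for hexosaminidase A, had a log2 fold change of 0.17 (adjusted p = 0.0566) with groups that did not overlap, 3270.4, 3181 and 3232 intensity units with the inhibitor and 2858, 2837 and 2929.6 with vehicle, and it was called with dim genes left out (0.0279), a floor of 64 (0.0249) or an intensity trend with a robust prior (0.000534).

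Enzymes that act on sphingolipids moved in different directions. Galc, the galactosylceramidase that is deficient in Krabbe disease, had 263, 305 and 259 intensity units with the inhibitor and 195, 209 and 207 with vehicle, a log2 fold change of 0.43 ± 0.08. Asah1, the acid ceramidase, had 2588, 2547 and 2499 intensity units with the inhibitor and 2054, 1972 and 2165 with vehicle, a log2 fold change of 0.30 ± 0.05. Both were called higher at an adjusted p of 0.0139, and in both genes every inhibitor array lay above every vehicle array. Smpd1, the acid sphingomyelinase that makes ceramide and is deficient in Niemann-Pick disease types A and B, was the single gene of the 53 called lower. Its intensity was 564, 570.3 and 512 with the inhibitor and 661, 677 and 670.0 with vehicle, so that every inhibitor array lay below every vehicle array. It fell by 0.29 ± 0.06 (SE) on the log2 scale (adjusted p = 0.0208). Ppt1, the palmitoyl-protein thioesterase that strips lipid from proteins, had 2153, 2065 and 2104 intensity units with the inhibitor and 1808, 1779 and 1792 with vehicle and rose by 0.23 ± 0.05 log2 units.

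In this class, only Lipa and Psap kept their calls in every setting that left out 1 array. Each such setting also has fewer arrays than the full fit. Without inhibitor arrays 1, 2 and 3, 3, 5 and 5 genes were called higher, and without vehicle arrays 1, 2 and 3 there were 2, 2 and 3. The fall of Smpd1 was not called without inhibitor array 1 (adjusted p = 0.0598) or without vehicle arrays 1, 2 and 3 (0.0603, 0.083 and 0.0789). Asah1, Galc and Ppt1 were not called without vehicle arrays 1 or 2, nor Galc and Ppt1 without vehicle array 3 or Asah1 and Ppt1 without inhibitor array 1, at adjusted p between 0.0501 and 0.0816, and Ppt1 was also lost with median centring (0.105).

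Membrane and sterol transport proteins had the highest median of the 6 classes, 0.40 on the log2 scale; differences between classes were not tested. Of 10 genes, 8 were higher and none lower. Cd68 encodes macrosialin, a heavily glycosylated late endosomal protein used as a macrophage marker. It had 2669, 2750.0 and 2837 intensity units with the inhibitor and 1915, 1864 and 1891 with vehicle, clearly apart, with a log2 fold change of 0.54 ± 0.05 (adjusted p = 0.00096). Scarb2, the membrane protein LIMP-2, a sorting receptor, had 759, 817 and 847 intensity units with the inhibitor and 565, 554 and 578 with vehicle, a log2 fold change of 0.51 ± 0.06. Mcoln1, the calcium channel TRPML1 whose opening activates TFEB, had 1493, 1605 and 1524 intensity units with the inhibitor and 1086, 1140.3 and 1098 with vehicle, a log2 fold change of 0.47 ± 0.05. The arrays of the 2 groups did not overlap in any of these genes. Cln3, a membrane protein lost in juvenile neuronal ceroid lipofuscinosis, had 1231, 1304 and 1148 intensity units with the inhibitor and 920.0, 901 and 902 with vehicle and rose by 0.43 ± 0.06 log2 units.

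Npc1 and Npc2 hand cholesterol from the lumen across the lysosomal membrane. The membrane protein gene Npc1 had 1885, 1884 and 1888 intensity units with the inhibitor and 1346, 1448 and 1390.2 with vehicle, a log2 fold change of 0.44 ± 0.05 (adjusted p = 0.0027). Its soluble partner Npc2 had 2097, 2129 and 2043 intensity units with the inhibitor and 1797, 1825 and 1921 with vehicle and a log2 fold change of 0.18 (0.06 to 0.30, adjusted p = 0.0645), without overlap and without passing the threshold, although it was called with dim genes left out (0.0336), a floor of 64 (0.0328) and an intensity trend with a robust prior (0.00191). Lamp1 and Lamp2, the main glycoproteins that line the membrane, rose by 0.27 ± 0.05 and 0.20 ± 0.05 log2 units. For Lamp1 the intensities were 3706, 3668 and 3929.8 with the inhibitor and 3050.5, 3107 and 3232 with vehicle. Lamp2 had 4107, 3916 and 4105 intensity units with the inhibitor and 3458, 3467 and 3661 with vehicle, a narrower gap between the groups. The tetraspanin gene Cd63 rose by 0.37 ± 0.07 log2 units, with inhibitor array 3 the brightest (1535, 1492 and 1746 intensity units with the inhibitor, 1278, 1182 and 1219 with vehicle). Ctns, the cystine exporter cystinosin, had 1137, 1198 and 1081 intensity units with the inhibitor and 1119, 1056 and 1129.6 with vehicle, overlapping groups with a log2 fold change of 0.05 (-0.09 to 0.19).

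The calls of Cd68, Scarb2, Mcoln1, Cln3 and Npc1 held without any single array. In this class 5, 8 and 7 genes were called higher without inhibitor arrays 1, 2 and 3 and 6, 5 and 5 without vehicle arrays 1, 2 and 3. Lamp2 was called only without inhibitor array 2 among these settings (adjusted p up to 0.16), Lamp1 was not called without inhibitor array 1 (0.0648) or vehicle arrays 1, 2 and 3 (0.0687, 0.0796 and 0.0544), and Cd63 not without inhibitor array 1 (0.0565) or vehicle arrays 2 and 3 (0.0804 and 0.0727). With median centring Lamp1 and Lamp2 were not called (0.0728 and 0.202).

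All 8 genes of the V1 sector had inhibitor arrays above vehicle arrays; 6 were called higher and none lower, with a median log2 fold change of 0.26 and a range of 0.13 to 0.47. The catalytic hexamer is built of A and B subunits. Atp6v1a had 2834, 3068 and 2791 intensity units with the inhibitor and 2512, 2416 and 2498 with vehicle, a log2 fold change of 0.23 ± 0.06, and Atp6v1b2, the B subunit of most tissues, rose by 0.29 ± 0.04 log2 units. Atp6v1b2 had 3109, 3148 and 3179.6 intensity units with the inhibitor and 2546, 2601 and 2546 with vehicle, both groups tight. The peripheral stalks that hold the hexamer still are made of E and G subunits. Atp6v1e1 had 1622, 1606 and 1837 intensity units with the inhibitor and 1227, 1317 and 1302 with vehicle, a log2 fold change of 0.39 ± 0.07. Atp6v1g1 showed the largest rise of the sector, 0.47 ± 0.07, with 965, 954 and 1091 intensity units with the inhibitor and 735, 738 and 690.3 with vehicle, and its other probe set also gave 0.47. The intensities of the dimmer probe set were 0.868 to 0.882 times those of the brighter on the 6 arrays, and whether both read the same transcript or a near-identical copy was not tested.

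Of the central rotor, subunit D is encoded by Atp6v1d and subunit F by Atp6v1f. Atp6v1d had 1521, 1515 and 1466 intensity units with the inhibitor and 1201, 1161 and 1208 with vehicle, a log2 fold change of 0.33 ± 0.05 (adjusted p = 0.00615). Atp6v1f, at 0.13 (0.01 to 0.24), was not called by either of its probe sets. Their log2 fold changes were 0.13 and 0.14, with limma adjusted p of 0.141 and 0.117 when every probe set was tested singly. Their intensities also kept a ratio close to constant (0.897 to 0.918), with the same doubt about a copy. Subunit C, which joins the stalks to the V0 sector and leaves when the pump is disassembled, is encoded by Atp6v1c1, which had 1713, 1765 and 1661 intensity units with the inhibitor and 1465, 1437 and 1513 with vehicle and rose by 0.22 ± 0.05 log2 units. The regulatory subunit H, encoded by Atp6v1h, was not called at 0.15 (0.02 to 0.27), with 1251, 1244 and 1335 intensity units with the inhibitor and 1116, 1181 and 1161 with vehicle. All 8 were called higher when the fit used an intensity trend and a robust prior, Atp6v1f at 0.0167 and Atp6v1h at 0.0185.

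The calls of Atp6v1b2, Atp6v1d, Atp6v1e1 and Atp6v1g1 held without any single array. The count was 4, 4 and 5 without inhibitor arrays 1, 2 and 3, and 4 without each of the vehicle arrays in turn: Atp6v1a was called in none of these settings (adjusted p 0.0578 to 0.142) and Atp6v1c1 without inhibitor array 3 alone, and both calls were lost with median centring (0.184 and 0.179).

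Subunits of the pump outside this set were compared as further lists. Of the V1 isoforms found mainly in kidney, testis or brain, 1 of 5 was higher: Atp6v1b1, with mean intensities of 121 with the inhibitor and 95.8 with vehicle (log2 fold change 0.34), a call lost without inhibitor array 1 (0.0673) and vehicle arrays 1, 2 and 3 (0.0517, 0.0848 and 0.0706). Atp6v1g3, Atp6v1e2 and Atp6v1g2 did not pass, with log2 fold changes of 0.16, 0.18 and 0.10. Of 11 V0 and accessory subunits, 5 were higher and none lower, with a median of 0.18. Atp6v0d2, the d isoform of osteoclasts and macrophages, stood apart with 118, 167 and 140.2 intensity units with the inhibitor and 30.8, 33.0 and 41.7 with vehicle, a log2 fold change of 2.01 ± 0.16, which was 1.13 with a floor of 64. The a subunits Atp6v0a1 and Tcirg1 rose by 0.37 and 0.28 log2 units, and Atp6v0e by 0.23. The call of Tcirg1 was lost without inhibitor array 1 (0.0566), without vehicle arrays 2 and 3 (0.0549 and 0.0575) and with median centring (0.071), and that of Atp6v0e without inhibitor array 1 (0.0802), without vehicle arrays 1, 2 and 3 (0.0704, 0.0701 and 0.0763) and with median centring (0.13). The V0 count was 2, 4 and 4 without inhibitor arrays 1, 2 and 3, and 3, 2 and 2 without vehicle arrays 1, 2 and 3, and 2 with median centring; with a floor of 64, or with an intensity trend and a robust prior, it was 8.

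Smaller shares of the lysosomal enzymes and transporters outside the 53 genes were called higher, a difference that was not tested. The 53 genes and these lists were chosen with earlier results of these data known. The part of that choice in the difference was not tested either. Of 23 other hydrolases, 5 were higher and none lower (median 0.13). Ggh, which trims folate polyglutamates, rose by 0.87 ± 0.07 log2 units, the dipeptidyl peptidase gene Dpp7 by 0.70 ± 0.05, the thioesterase gene Ppt2 by 0.43 and the cathepsin gene Ctso by 0.32, whose call was lost without vehicle array 3 (0.0522). Of 26 other membrane proteins and transporters, 9 were higher and none lower (median 0.13). Slc15a3, an endolysosomal transporter of peptides and histidine, had 503, 547 and 588 intensity units with the inhibitor and 177, 177 and 185 with vehicle, a log2 fold change of 1.60 ± 0.07. Clcn7, the chloride-proton exchanger that works beside the proton pump, rose by 0.75 ± 0.07 log2 units, the endolysosomal cation channel gene Tpcn2 by 0.51 and Tmem192 by 0.35. The hydrolase count was 3 without vehicle array 3, 9 with dim genes left out or a floor of 64 and 11 with an intensity trend and a robust prior, and the membrane protein count was 6, 6 and 5 without vehicle arrays 1, 2 and 3, 6 without inhibitor array 1 and 5 with median centring.

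New hydrolases are tagged with mannose 6-phosphate and carried to the lysosome by receptors. Of 16 sorting and maturation genes, 4 were higher and none lower, with a median log2 fold change of 0.05. The receptor gene Igf2r had 139, 162 and 149 intensity units with the inhibitor and 106, 113 and 105 with vehicle and rose by 0.47 ± 0.07 log2 units, the sorting receptor gene Sort1 by 0.32 ± 0.05 and Cln8, which helps enzymes leave the endoplasmic reticulum, by 0.70 ± 0.06. Sumf1, which activates all sulfatases, rose by 0.24 log2 units, a call lost without inhibitor array 1 (0.0597), vehicle arrays 1, 2 and 3 (0.064, 0.0758 and 0.0635) and with median centring (0.105). Gnptab, a subunit of the enzyme that starts the tag, was not called at 0.15 log2 units.

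Cystatins, stefins and some serpins inhibit lysosomal proteases. Of 9 such genes measured, 4 were higher and none lower, with a median log2 fold change of 0.23. The stefin gene Stfa3 had 415, 433 and 489 intensity units with the inhibitor and 167, 171 and 180.4 with vehicle, a log2 fold change of 1.37 ± 0.07, and Stfa2 rose by 0.52 log2 units; both belong to a cluster of near-identical genes and are uncertain. Cstb, the cytosolic inhibitor stefin B, had 3056, 3049 and 3256 intensity units with the inhibitor and 2392, 2358 and 2473 with vehicle and rose by 0.37 ± 0.05 log2 units. Cst7, a cystatin that reaches the lysosome, rose by 0.24 log2 units, a call lost without inhibitor array 1 (0.079), without vehicle arrays 1, 2 and 3 (0.0581, 0.081 and 0.0747) and with median centring (0.119). Cst3, the secreted cystatin C, had means of 3620.4 with the inhibitor and 3622 with vehicle.

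**Figure D4:**
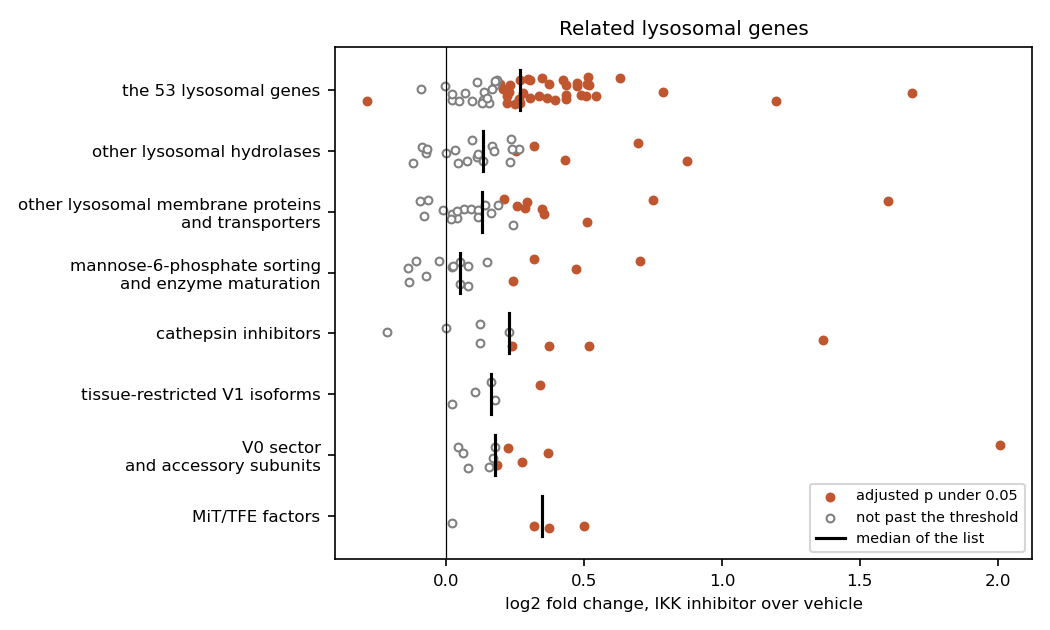
Log2 fold change, IKK inhibitor over vehicle, of the 53 lysosomal genes and of 7 lists of related genes, 1 point per gene with random vertical offset and a bar at each list's median. The medians are 0.27 for the 53 genes, 0.13 for the other hydrolases, 0.05 for the sorting genes and 0.35 for the MiT/TFE factors; the point farthest to the right is Atp6v0d2 at 2.01.

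The transcription factors that bind the E-box of lysosomal promoters were measured too. Mitf had 375, 418 and 393 intensity units with the inhibitor and 268, 282 and 288 with vehicle and rose by 0.50 ± 0.06 log2 units. The rise was 0.25 (adjusted p = 0.0185) when its 2 probe sets were averaged. The dimmer probe set showed no difference between the groups after the floor was applied, and its intensities are not given here. Tfe3 rose by 0.37 ± 0.06 log2 units and Tfeb by 0.32 ± 0.06, while Tfec, a myeloid member of the family, had a log2 fold change of 0.02, a sign that turned with quantile normalization and median centring (-0.02 and -0.01). The Tfeb call was lost without inhibitor array 1 (0.0654), without vehicle arrays 1 and 3 (0.0538 and 0.0671) and with median centring (0.0506). Arrays of RNA do not measure the nuclear entry of these factors, through which their activity is mainly controlled.

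Promoters from RefSeq (build GRCm38.p6, 250 bases before to 50 after each start) were matched for 44 of the 53 genes; Ctsb, Ctsh, Galns, Asah1, Npc1, Atp6v1b2, Atp6v1c1, Atp6v1g1 and Atp6v1h were not matched. The 4 promoters below show the range: Lamp1, with the most matches of all members, Mcoln1 and Ctsd, with a pair each and a rise in the upper part of the list, and Ctss, with the largest rise and no match. Capitals mark the E-box CACGTG, which reads the same on both strands, and the rest is in lower case, 5′ to 3′ on the gene's strand.
Lamp1 (chr8:13158911-13159210, + strand): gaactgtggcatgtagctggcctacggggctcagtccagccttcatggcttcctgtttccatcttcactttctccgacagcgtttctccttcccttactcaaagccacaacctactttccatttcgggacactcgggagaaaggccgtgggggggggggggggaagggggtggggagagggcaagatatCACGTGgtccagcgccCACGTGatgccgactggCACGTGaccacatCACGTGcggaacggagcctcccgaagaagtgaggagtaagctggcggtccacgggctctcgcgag
Mcoln1 (chr8:3500269-3500568, + strand): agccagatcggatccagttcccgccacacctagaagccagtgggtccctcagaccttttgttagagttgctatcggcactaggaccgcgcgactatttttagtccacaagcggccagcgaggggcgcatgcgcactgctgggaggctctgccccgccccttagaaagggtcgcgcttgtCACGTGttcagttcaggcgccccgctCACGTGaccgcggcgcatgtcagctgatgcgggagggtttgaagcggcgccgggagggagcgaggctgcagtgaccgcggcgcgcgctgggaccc
Ctsd (chr7:142387778-142388077, - strand): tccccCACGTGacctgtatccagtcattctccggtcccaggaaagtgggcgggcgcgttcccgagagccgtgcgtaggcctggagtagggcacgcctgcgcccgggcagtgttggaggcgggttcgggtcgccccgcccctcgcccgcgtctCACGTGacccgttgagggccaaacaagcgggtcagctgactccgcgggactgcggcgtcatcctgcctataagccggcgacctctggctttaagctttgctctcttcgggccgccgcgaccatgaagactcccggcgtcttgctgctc
Ctss (chr3:95526536-95526835, + strand): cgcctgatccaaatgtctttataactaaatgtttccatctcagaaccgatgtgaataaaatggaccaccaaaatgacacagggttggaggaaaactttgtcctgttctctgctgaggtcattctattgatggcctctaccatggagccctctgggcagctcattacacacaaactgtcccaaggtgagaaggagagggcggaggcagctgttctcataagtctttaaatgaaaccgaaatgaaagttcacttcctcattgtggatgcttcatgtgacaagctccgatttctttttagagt

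The E-box CACGTG was found in 15 of the 44 genes (34.1%), against 9.54% of 15515 genes on the arrays with a promoter in the table and 8.09% of all 27025 genes in it. The form TCACGTG, on either strand, was found in 13 of the 44 (29.5%), against 5.38% of the genes on the arrays, and the palindrome TCACGTGA in 6 (13.6%), against 1.53%; each longer form contains the core. The median GC content of the promoters was 56.5% for the 44 genes and 57.7% for the genes on the arrays. Lamp1 had 4 matches between 61 and 10 bases before the start, and Mcoln1 had 2, the nearer one of the palindromic form. Other palindromes were found in Ctsa, Ctsd, Cln3, Gla and Atp6v1a. By class, the core was found in 5 of 10 proteases, 4 of 11 glycosidases, 2 of 4 sulfatases, 3 of 9 membrane proteins, 1 of 4 V1 subunits and 0 of 6 lipid enzymes and activators.

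Genes with and without a match had medians close to each other; the difference was not tested. Of the 15 genes with the E-box, 9 were called higher and none lower, with a median log2 fold change of 0.23 and a range of -0.0042 to 0.51. Of the 29 without it, 18 were called higher and 1 lower, with a median of 0.25 and a range of -0.29 to 1.69. Ctss, Lipa, Psap, Cd68 and Scarb2 had no match in this window, and the 6 genes with a match that were not called were Lgmn, Ctsf, Ctsl, Gaa, Glb1 and Arsa. The matches describe letters in a 300-base window and no binding was measured.

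**Figure D5:**
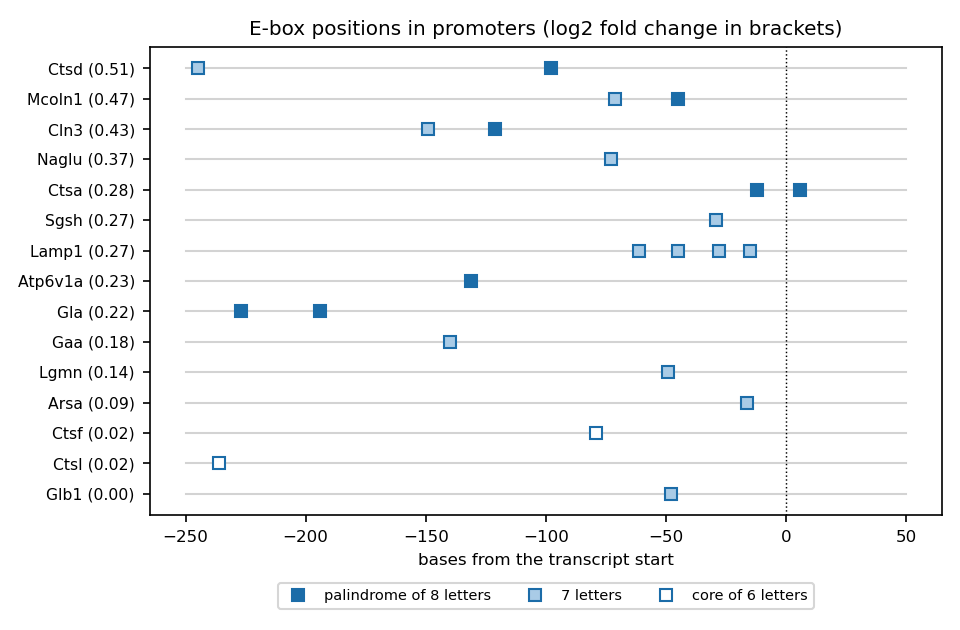
Position of the E-box CACGTG in the promoters of the 15 lysosomal genes that hold it, in bases from the transcript start, sorted by log2 fold change (in brackets), with darker squares for the longer forms TCACGTG and TCACGTGA. Matches begin between 245 bases before and 6 bases after the start.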

How the data were processed

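Total RNA of 6 samples of MLL-AF10 cells, 3 per group, was read on 6 whole-transcript Affymetrix arrays. The deposited values are linear intensities per probe set; the submitters' processing notes name Affymetrix Expression Console without a version, no source used here gives the summary algorithm or the normalization, and a scaling of the arrays could change every fold change. The table held 35512 probe sets with values of 0.71 to 8185.74. Of these, 21789 had 1 gene symbol in the platform annotation, 1621 had several and 12102 were not listed there; 706 rows shared all their values with another row. Symbols were updated through Entrez identifiers, and the brightest probe set stood for each of 999 genes with several. Values under 16 (5.94% of all) were set to 16 and log2 was taken, with no further scaling. The comparison used lmFit and eBayes of limma 3.58.1 (R 4.3.3, two-sided), and p-values were adjusted by Benjamini-Hochberg over the 19847 genes tested, those above the floor on at least 1 array, with a threshold of 0.05. The fit was tested on simulated data with changes larger than the median rise of the 53 genes, so recovery of changes as small as that median was not tested. The members and lists were chosen with earlier results of these data known. The text may name every one of the 53 genes; of each related list it names Tfeb, Tfe3, Mitf, Gnptab, Igf2r, Cst3, Cstb and up to 4 genes with the smallest p, and marker genes were named after their values were seen. Alternatives were quantile normalization, centring each array on its median, leaving out dim genes (mean under the 25th percentile), floors of 1 and 64, the mean of probe sets, an intensity trend with a robust prior, a replicate block, each array left out in turn and, chosen after seeing the data, each probe set tested singly (21676 probe sets). Promoter sequences are RefSeq's on GRCm38.p6, and letters were searched on both strands.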

Additional observations from a re-analysis of the deposited data

How the results depend on the processing

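The direction of the 53-gene median and of the 6 class medians was the same in all 14 alternative settings, while counts of calls moved when single arrays were left out. Such settings also have fewer arrays, and the part of that in the lost calls was not tested. With single arrays left out, all genes called numbered 1183 to 2810 (788 to 1510 higher and 395 to 1300 lower), the 53 genes had 20 to 30 higher and 0 to 1 lower with a median of 0.25 to 0.28, and the classes had 4 to 7 proteases, 3 to 4 glycosidases, 2 to 5 lipid genes and 5 to 8 membrane proteins higher and 0 to 1 lipid genes lower. Without vehicle array 2 the counts of all genes and of the 53 were lowest. Of the 36 calls among the 53 genes, 20 held without each array in turn and 16 were lost at least once, 4 of them (Ctsz, Hexa, Sgsh and Atp6v1a) each time. Median centring gave 23 of the 53 genes higher with a median of 0.23, 4 proteases and 3 glycosidases, and quantile normalization a median of 0.24. An intensity trend with a robust prior called 4199 genes, 2220 of them lower. With the replicate number as a block, 1679 genes were called, 681 of them lower. Of the 53 genes 26 were then higher and 0 lower (3 glycosidases higher, 0 lipid genes lower). The deviations of same-numbered arrays from their group means correlated at 0.24, 0.13 and -0.09. Those of differently numbered arrays correlated at -0.29 to 0.18. With 3 arrays per group these values cannot tell whether the numbers pair the samples. Values near 0 changed sign: Ctsf with quantile normalization (-0.0095) and median centring (-0.012), Ctsl with median centring (-0.013), Tfec with quantile normalization (-0.024) and median centring (-0.014), and with single arrays left out Ctsf (-0.0046 to 0.053), Ctsl (-0.0085 to 0.061), Glb1 (-0.027 to 0.013), Cst3 (-0.013 to 0.017) and Tfec (-0.0035 to 0.052). The cause of these changes was not tested. The share of promoters with a match was 29.5% for TCACGTG, against 34.1% for the core. The table has no detection calls, so signal over background is unknown.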
